A study of Capra hircus with 30 samples.

Results

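Granulosa cells (GCs) of large ovarian follicles were compared between goats of high and of low fertility. The comparison used 10 of the 30 libraries of the series, chosen by their labels: 5 libraries named HLG (high fertility, large follicles) and 5 named LLG (low fertility, large follicles). They carry the numbers 5, 7, 8, 9 and 10 in both groups. The animals were Ji'ning grey goats, untreated as far as the labels say, and their ages and genotypes are not given. The study sorted them by litter size, with limits of 3 kids for high and 2 kids for low fertility, and its texts differ on whether the limits are included. Large follicles were the largest of its 3 size classes, and the other 20 libraries come from medium (HMG, LMG) and small (HSG, LSG) follicles of the same fertility classes. Per the study, follicles of each class were collected from several goats, and the GCs of each size were divided into 5 samples of few cells. Pooling is stated for the oocytes, and which goats each GC library holds is not stated in the sources used here. The spread between libraries may therefore be technical rather than that between animals, and p-values measure that spread alone.

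GCs are the somatic cells that line the follicle and surround the oocyte. They respond to the gonadotropins FSH and LH through receptors that act by Gs proteins and cyclic AMP, and in large follicles they make oestradiol with the enzyme aromatase (CYP19A1) and secrete inhibin and activin. They are coupled to the oocyte and to each other by gap junctions, and they answer to oocyte ligands of the TGF-β superfamily. When a follicle fails to ovulate, its GCs die by apoptosis, a process named atresia. The question of the design was which genes GCs of large follicles express differently in goats that bear more kids.

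The values are FPKM (fragments per kilobase and per mapped total of the library), which scales them by gene length and by library. The summed FPKM still ranged from 35200 in LLG-7 to 82950 in LLG-9. Most of the 20125 features were listed at 0 in most of the 10 libraries. A gene listed at 0 may still have been expressed, since genes that most cells use were at 0 in many libraries too. Of 30 features of that kind, among them ACTB and GAPDH, 27 were above 0 in HLG-5, 27 in HLG-10 and 28 in LLG-9. Between 3 and 7 of them were above 0 in the other HLG libraries, and between 2 and 11 in the other LLG libraries. The summed FPKM of the 30 was 355 in HLG-5, 38 in HLG-10 and 9.73 in LLG-9, so that the count in LLG-9 rested on low values. For this reason the value of each library is given below, and the number of libraries above 0 is given beside it. In genes spanning 900 to 1000 bp, the lowest value above 0 was 0.07 or 0.08 FPKM in 9 libraries. It was taken as about the worth of 1 fragment, and LLG-7 had no such gene above 0. Read totals were not used here. HLG-5, LLG-5 and LLG-7, and HSG-5 of the small follicles, are missing from the mapping information of the study. Some results without them are given below. Those of limma leave out all 4, and those of the other tests leave out the 3 from large follicles.

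The libraries differed widely within each group in how many features they showed. In HLG, 1974 features were above 0 FPKM in HLG-5, 2992 in HLG-7, 1452 in HLG-8, 3832 in HLG-9 and 7554 in HLG-10. In LLG, the number was 875 in LLG-5, 301 in LLG-7, 5843 in LLG-8, 2446 in LLG-9 and 988 in LLG-10. HLG-10 and LLG-8 thus stood above the rest of their groups, and the groups overlapped. At 1 FPKM or more, HLG libraries had 674, 1411, 717, 1738 and 2405 features and LLG libraries 515, 201, 2284, 745 and 463, in the order of their numbers. The mean difference of 547.4 features was within the spread of the groups (exact permutation test, two-sided, p = 0.294, n = 5 each, smallest possible p 0.00794). It was 1470 features above 0 FPKM (same exact test, p = 0.357) and 15.8 features at 10 FPKM or more (same exact test, p = 0.683). Without LLG-8 the difference at 1 FPKM or more was 908 (exact permutation test, p = 0.0476, not adjusted for the libraries left out in turn). LLG-8 had the highest LLG count, so that leaving it out was bound to widen the difference. Leaving out any other single library gave p from 0.206 to 0.587 (exact permutation test). Without HLG-5, LLG-5 and LLG-7 the difference was 403.8 (exact permutation test, p = 0.514, n = 4 and 3).

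**Figure D1:**
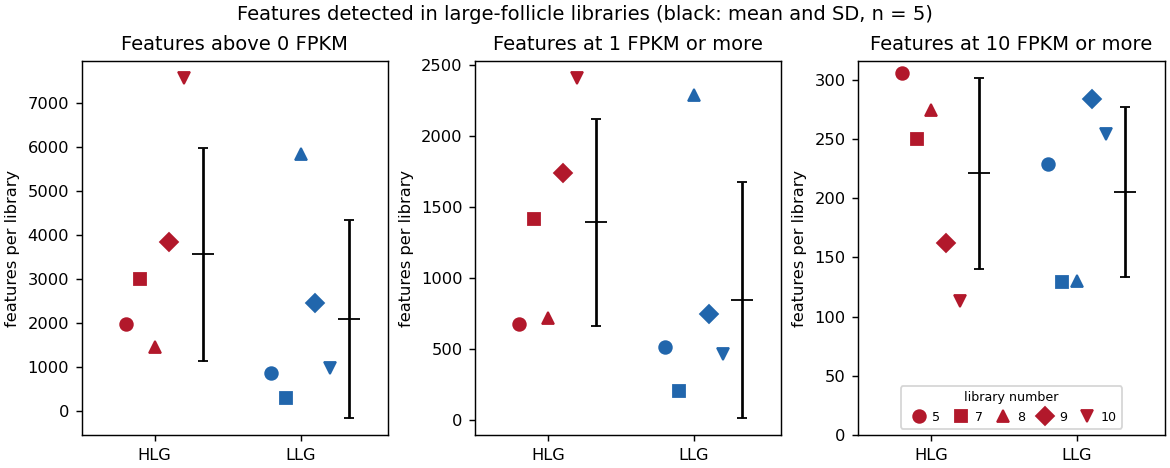
Features above 0 FPKM (left), at 1 FPKM or more (middle) and at 10 FPKM or more (right) in each HLG library (red) and LLG library (blue). Each symbol is 1 library, named by its number, and black marks are group means with SD (n = 5). At 1 FPKM or more LLG-8 lies at 2284 and the other LLG libraries between 201 and 745.

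Detection of single features varied as much. Of the 20125 features, 7027 were at 0 in all 10 libraries and 13098 were above 0 in at least 1. Only 945 were above 0 in 5 libraries or more and 111 in 8 or more. A total of 65 features was above 0 in all 10 libraries (71 in the other 9 without LLG-7). More HLG than LLG libraries showed 7668 features, more LLG than HLG libraries showed 2816, and 2614 were above 0 in as many of each. HLG alone showed 5256 features and LLG alone 2198. The share of genes with a symbol that were above 0 was 11.2%, 15.7%, 7.38%, 20.1% and 40.5% in the HLG libraries and 4.40%, 1.32%, 31.2%, 13.7% and 5.24% in the LLG libraries. Every count of detected genes below is to be set beside these shares. The worth of about 1 fragment was 0.07 or 0.08 FPKM in the 9 libraries other than LLG-7. They include LLG-5, with 875 features above 0, and HLG-10, with 7554. That worth was read as the lowest value of 6 genes in HLG-5, 9 in LLG-5 and 6 in LLG-10, against 159 in HLG-10. With so few genes the lowest value need not be 1 fragment. Whether more cells, more RNA or deeper sequencing gave more features was not tested.

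The 65 features above 0 in all 10 libraries held most of the measured signal. They took 78.1% of the FPKM in HLG-5 and 86.6% to 88.7% in the other HLG libraries, and 86.3% to 90.6% in LLG libraries. Of the 65, 39 have no NCBI gene number, 14 are loci named LOC and 12 carry a gene symbol. The most abundant feature, MXLOC_1189582, averaged 5357 ± 1525 FPKM in HLG and 5778 ± 2013 in LLG (SD, n = 5 each). The next, MXLOC_1165944, averaged 4521 ± 651 and 4530 ± 1939 FPKM. Both differences were smaller than the SD within either group. What the MXLOC identifiers stand for is not stated in the sources used here.

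The 12 genes with a symbol among the 65 were SGCB, EGFR, PXMP4, NIPSNAP1, PEX2, BRI3BP, FFAR4, TTC4, CDKN1A, MRS2, NIF3L1 and MMGT1. EGFR, the receptor by which GCs answer to the EGF-like factors released after the LH surge, was at 54.2, 65.4, 40.6, 40.9 and 55.9 FPKM in HLG-5, HLG-7, HLG-8, HLG-9 and HLG-10. It was at 18.5, 67.9, 49.5, 58.9 and 31.8 FPKM in LLG-5, LLG-7, LLG-8, LLG-9 and LLG-10, a wider range that enclosed the HLG values. Its log2 fold change of HLG against LLG was 0.29 ± 0.50 (SE, log2(FPKM + 1) scale, limma, adjusted p = 1), and it turned to -0.32 when libraries were scaled to features present in all 30 of them. SGCB, the β-sarcoglycan of the cell membrane, lay between 51.6 and 98.7 FPKM in HLG. In LLG it was at 12.4, 31.6, 77.7, 36.9 and 30.6 FPKM, so that only LLG-8 fell within the HLG range. Its log2 fold change was 0.94 ± 0.49 (limma, adjusted p = 0.976).

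A pair of genes of the peroxisome, the organelle that oxidises very long fatty acids, were also in every library. PXMP4, a peroxisomal membrane protein, was at 24.2 to 81.7 FPKM in HLG and 13.1 to 73.3 in LLG. PEX2, needed to import peroxisomal proteins, was at 1.74, 20.2, 94.9, 44.5 and 41.6 FPKM in HLG and at 0.16, 9.30, 23.6, 51.3 and 0.05 FPKM in LLG. Their log2 fold changes were 0.65 ± 0.48 and 1.88 ± 0.94 (limma, adjusted p = 0.997 and 0.976). The groups overlapped for both genes. CDKN1A, the cell cycle inhibitor p21, was the single one of the 12 with a lower mean in HLG on the log2 scale, at -0.31 ± 0.79 (limma, adjusted p = 1). It was at 29.1, 3.57, 0.23, 27.5 and 21.9 FPKM in HLG and at 2.99, 7.65, 14.98, 27.1 and 19.5 FPKM in LLG, and without HLG-8 its direction turned, to 0.46.

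The remaining 6 genes overlapped between the groups as well. MRS2, the magnesium channel of mitochondria, was at 25.9 FPKM in HLG-7 and at 9.50 to 13.1 in the other HLG libraries, against 7.21 to 19.0 in LLG. NIPSNAP1, another mitochondrial protein, ranged from 14.3 to 80.0 FPKM in HLG and from 5.63 to 68.3 in LLG. LLG-7 listed BRI3BP at 0.37 FPKM and TTC4, a co-chaperone of HSP90, at 0.06, far below the lowest HLG values of 22.7 and 11.3. NIF3L1 was at 0.62 FPKM in HLG-5 and at 0.08 and 0.14 in LLG-5 and LLG-7, and between 6.53 and 27.0 in the other 7 libraries. MMGT1, a subunit of the endoplasmic reticulum membrane complex, was under 0.1 FPKM in HLG-5, HLG-8, LLG-5, LLG-7 and LLG-10 and between 3.56 and 7.66 in the others. Low values of NIF3L1 and MMGT1 thus lay in libraries of both groups.

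**Figure D2:**
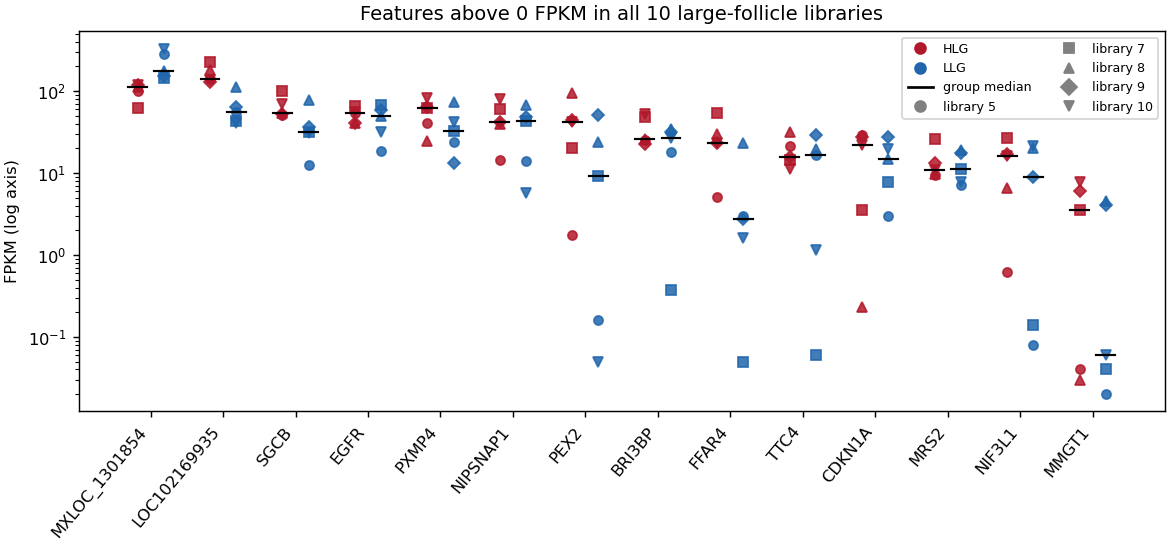
FPKM (log axis) of the 12 genes with a symbol that were above 0 in all 10 libraries, and of LOC102169935 and MXLOC_1301854, in HLG (red) and LLG (blue). Symbols mark the library number and black lines the group medians. HLG and LLG overlap for the 12 genes, while LOC102169935 lies at 127 to 226 in HLG and at 41.1 to 112 in LLG.

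In 2 of the 65 features the values of HLG and LLG did not overlap, 1 in each direction (1.54% of 65 each). They are named because of that pattern, so no test is added to it. LOC102169935 (NCBI gene 102169935) was at 141, 226, 178, 127 and 138 FPKM in HLG and at 55.9, 43.5, 112, 64.3 and 41.1 FPKM in LLG. The mean was 162 ± 40.4 FPKM in HLG and 63.3 ± 28.6 in LLG (SD, n = 5 each). MXLOC_1301854 was at 100.2, 62.9, 111, 117 and 118 FPKM in HLG and at 286, 146, 176, 153 and 330 FPKM in LLG. Scaling changed both patterns, a check chosen after the values had been seen. With the FPKM of every library rescaled to the same sum, only LOC102169935 remained apart, and after scaling to features above 0 in all 30 libraries neither did. There, LLG-5 and LLG-7 reached 133 and 147 for LOC102169935, and HLG-9 and HLG-10 stood at 111 and 119. Among all 6058 features tested with limma, every HLG value lay above every LLG value in 7 features (0.116%) and below in 1 (0.0165%). MXLOC_1085223, second among all features by p, was at 147 to 325 FPKM in HLG and at 40.1, 8.17, 239, 201 and 55.9 FPKM in LLG, which overlapped through LLG-8 and LLG-9.

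Differences across all features were then tested with limma on log2(FPKM + 1), for the 6058 features above 0.5 FPKM in at least 5 of the 30 libraries. No feature was called at an adjusted p of 0.05 (0% higher and 0% lower in HLG), and the lowest adjusted p was 0.976. At an unadjusted p under 0.05 there were 291 features (4.8%), 231 higher in HLG (3.81%) and 60 lower (0.99%). The median log2 fold change of the features tested was 0.10, with 3702 positive and 2015 negative values. When the count of detected features of each library entered the fit as a covariate, the median was 0.02 and 174 of 276 features at an unadjusted p under 0.05 were higher. With quantile normalization 208 of 306 were higher. The excess of higher features moved both ways when single libraries were left out. It was smaller without LLG-7 (148 of 274 higher), LLG-5 (159 of 262), LLG-10 (159 of 264) and LLG-9 (172 of 258). The excess was larger without LLG-8 (247 of 298) and without each single HLG library. Among the latter it ranged from 238 of 287 without HLG-9 to 339 of 376 without HLG-5. With sample quality weights 583 of 624 were higher. Without the libraries missing from the mapping information 172 of 337 were higher. A feature was called under 3 of the alternatives: FFAR4 and LOC102169935 among the 111 features above 0 in 8 or more libraries (limma, adjusted p = 0.0374 each), RIC8B with sample quality weights (limma, adjusted p = 0.00505), and PITPNA without the libraries missing from the mapping information (limma, adjusted p = 0.0484). Over the alternatives the adjusted p of RIC8B ranged from 0.00505 to 1, and that of FFAR4 and of LOC102169935 from 0.0374 to 1.

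The 10 genes of lowest p with higher values in HLG were RIC8B, FFAR4, PLPPR1, SC5D, SP4, ATXN3, PAPOLB, VAPA, ZBTB37 and RPL7L1. Their p chose them, so the values are a description. RIC8B, a chaperone and exchange factor of the Gs-type α subunits that carry the gonadotropin signal, was at 21.3, 8.97, 9.87, 3.13 and 1.25 FPKM in HLG. In LLG it was at 2.98 FPKM in LLG-8 and listed at 0 in the other 4 libraries. LLG-8 thus exceeded HLG-10 alone. FFAR4, a G protein-coupled receptor of long-chain fatty acids, was above 0 in all 10 libraries, at 5.04, 53.3, 30.3, 23.4 and 23.3 FPKM in HLG. It was at 2.96, 0.05, 23.3, 2.75 and 1.63 FPKM in LLG, so that LLG-8 lay within the HLG range and the other 4 LLG libraries lay below the lowest HLG value. The log2 fold change was 2.49 ± 0.61 for RIC8B and 2.52 ± 0.73 for FFAR4 (SE, limma, adjusted p = 0.976 each). Without LLG-8 they were 2.89 and 3.17 (limma, adjusted p = 0.159 each).

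The other 8 genes were above 0 in 3 to 5 HLG libraries and in at most 2 LLG libraries. SC5D, an enzyme of the last steps of cholesterol synthesis, was at 6.83, 5.69 and 3.0 FPKM in HLG-7, HLG-9 and HLG-10 and listed at 0 in the other 7 libraries. ATXN3, a deubiquitinase, was at 6.37, 1.29, 1.98 and 1.30 FPKM in HLG-7, HLG-8, HLG-9 and HLG-10 and at 0 in HLG-5 and in the 5 LLG libraries. PAPOLB, a poly(A) polymerase, and RPL7L1, a relative of a ribosomal protein, were above 0 in the same 4 HLG libraries, at 1.18 to 5.24 and 0.49 to 3.03 FPKM, and in none of LLG. VAPA, which tethers the endoplasmic reticulum to other membranes, was at 5.37, 7.02 and 5.46 FPKM in HLG-5, HLG-9 and HLG-10 and at 0.05 in LLG-9. SP4, a transcription factor of the Sp family, was above 0 in all 5 HLG libraries, at 0.36, 1.72, 17.0, 1.94 and 1.49 FPKM, and at 1.29 and 0.04 FPKM in LLG-8 and LLG-9. ZBTB37, a zinc finger protein, was at 0.01 to 10.8 FPKM in the 5 HLG libraries and at 0.90 and 0.19 in LLG-8 and LLG-9. PLPPR1 was at 1.07 to 21.0 FPKM in 4 HLG libraries and at 0.47 in LLG-9.

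The 10 genes of lowest p with lower values in HLG were ZNF800, YIPF6, PITPNA, CASP8, MORC3, GINS3, SREK1IP1, SNX12, ALOX12 and PDE1A. These were above 0 in 2 to 4 LLG libraries and in 0 to 3 HLG libraries, and the libraries that carried the high values changed from gene to gene. ZNF800, a zinc finger protein, was at 33.1, 0.93, 7.43 and 55.3 FPKM in LLG-7, LLG-8, LLG-9 and LLG-10 and at 4.28 and 0.03 FPKM in HLG-9 and HLG-10. YIPF6, a protein of the Golgi membrane, was at 6.43, 34.0, 1.25 and 8.78 FPKM in LLG-5, LLG-7, LLG-8 and LLG-10 and at most 0.95 FPKM in HLG. PITPNA, which moves phosphatidylinositol between membranes, was at 26.3 and 31.0 FPKM in LLG-9 and LLG-10 and listed at 0 in the other 8 libraries. CASP8, the initiator caspase of death receptor signalling, was at 6.41, 45.6 and 3.54 FPKM in LLG-5, LLG-7 and LLG-8 and at 0.02 FPKM in HLG-10. The log2 fold changes of ZNF800, YIPF6 and CASP8 were -2.50 ± 0.73, -2.11 ± 0.62 and -2.12 ± 0.67 (SE, limma, adjusted p = 0.976 each). Without the libraries missing from the mapping information they were -2.67, -1.003 and -0.72, and without LLG-7 that of CASP8 was -1.26.

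The highest values of the remaining 6 genes lay in LLG-5, LLG-7 or LLG-9. MORC3, a chromatin ATPase, was at 28.2 FPKM in LLG-5 and 13.6 in LLG-10, and at 3.89 in HLG-7. GINS3, a subunit of the replicative helicase, was at 21.8, 0.38 and 9.45 FPKM in LLG-5, LLG-8 and LLG-9 and listed at 0 in the 5 HLG libraries. SREK1IP1 was at 20.8, 5.26 and 5.28 FPKM in LLG-7, LLG-8 and LLG-9 and at 0.20 and 0.76 in HLG-7 and HLG-10. SNX12, a sorting nexin of endosomes, was at 8.31, 1.46 and 11.3 FPKM in LLG-5, LLG-8 and LLG-9, and at 0.03 in HLG-5. ALOX12, a lipoxygenase of arachidonic acid, was at 8.74 and 24.5 FPKM in LLG-5 and LLG-7 and at most 0.11 in the other 8 libraries. PDE1A, a phosphodiesterase of cyclic nucleotides, was at 40.15 FPKM in LLG-7 and 2.03 in LLG-8 and at most 0.07 elsewhere. Without the libraries missing from the mapping information the log2 fold change was 0.03 for ALOX12 and -0.57 for PDE1A, against -1.53 and -1.41 with them.

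**Figure D3:**
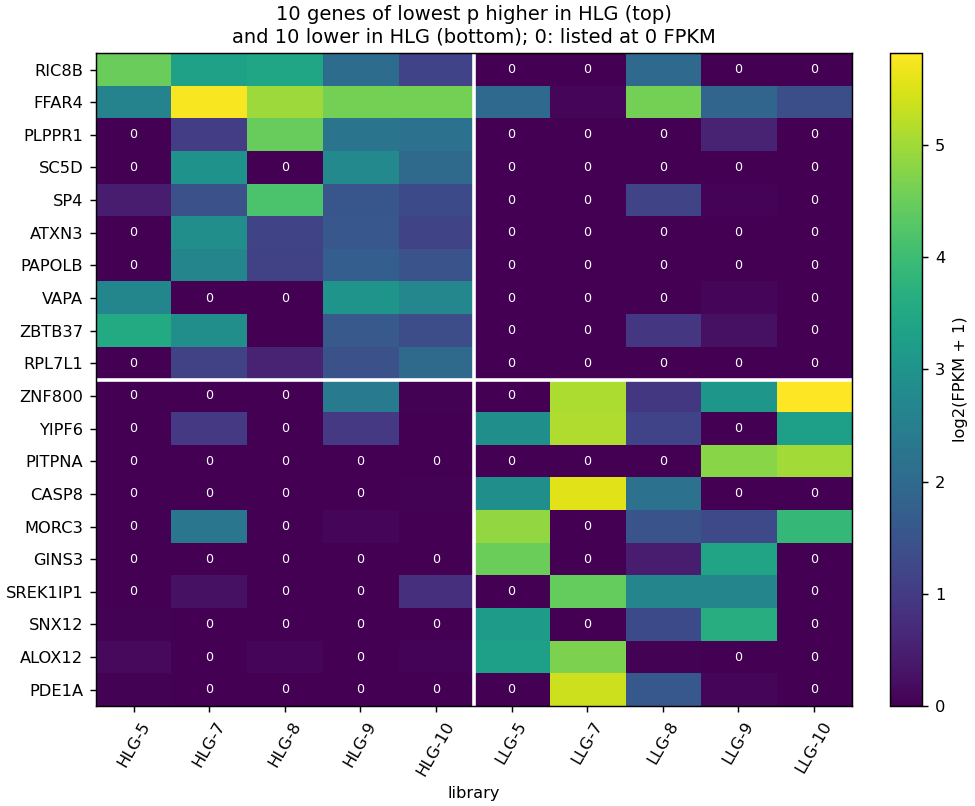
Values on the log2(FPKM + 1) scale of the 10 genes of lowest p with higher values in HLG (top) and the 10 with lower values in HLG (bottom), by library. Cells marked 0 were listed at 0 FPKM. RIC8B is above 0 in all 5 HLG libraries and in LLG-8, and FFAR4 is above 0 in all 10.

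Features that were above 0 in every library of one group and in none of the other were counted next. There were 4 in HLG (0.0305% of the 13098 features) and 0 in LLG (0%). The 4 genes were SOD2, RAB27A, IGFBP5 and ZCCHC14. SOD2, the superoxide dismutase of mitochondria, was at 0.02, 12.9, 14.4, 0.17 and 0.40 FPKM in HLG. RAB27A, a GTPase of secretory vesicles, was at 0.02, 10.3, 0.02, 0.05 and 1.48 FPKM. IGFBP5, a binding protein of insulin-like growth factors, was at 0.59, 0.03, 4.48, 0.01 and 0.08 FPKM, and ZCCHC14, a zinc finger protein, at 0.17, 2.58, 0.01, 0.60 and 0.03 FPKM. Each of the 4 thus had HLG values under 0.1 FPKM. At a limit of 0.5 FPKM the count was 1, IFNAR1, a receptor of type I interferons that was chosen after its values had been seen, and at 1 FPKM it was 0. Detection, taken as the count of libraries above 0 in each group, was compared by Fisher's exact test, which called 0 of 13098 features in either direction. Its smallest possible p with 5 libraries against 5 is 0.00794, which cannot pass the adjustment. At an unadjusted p under 0.05 it gave 61 features (0.466%), all above 0 in more HLG libraries, and 0 (0%) in more LLG libraries. These counts moved with single libraries, to 286 and 1 without HLG-5, 303 and 0 without HLG-8 and 64 and 18 without LLG-7, and to 26 and 9 without HLG-5, LLG-5 and LLG-7.

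Genes of known roles in the follicle were then described by list. None of their members was called by limma over all features, and the background for members at an unadjusted p under 0.05 is 3.81% higher and 0.99% lower in HLG. The label of the cells was examined first. Of 15 granulosa cell genes in the table, 2 to 6 were above 0 in an HLG library and 0 to 3 in an LLG library. FSHR, the FSH receptor, and AMH, NR5A1, NR5A2 and GATA4 were listed at 0 in all 10 libraries. LHCGR, the LH receptor, was above 0 in HLG-10 alone, at 0.03 FPKM, and CYP19A1 in LLG-9 alone, at 0.02 FPKM. FOXL2 was not analysed here. These markers of GCs were thus at or near 0, whereas INHBA, VCAN and FST of the same list, given next, passed 20 FPKM in single HLG libraries.

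Inhibin and activin genes were seen in few libraries. INHBA, the βA subunit, was at 20.4, 2.22 and 0.35 FPKM in HLG-5, HLG-9 and HLG-10 and at 2.49 in LLG-5. INHBB, the βB subunit, was at 2.51 and 0.39 FPKM in HLG-5 and HLG-10, and INHA, the α subunit of inhibin, at 1.72 FPKM in HLG-5. The 3 subunits were above 0 together in HLG-5 alone. FST, follistatin, which binds activin, was at 21.6 and 1.08 FPKM in HLG-8 and HLG-10 and at 0.13 and 0.07 FPKM in LLG-8 and LLG-9. VCAN, versican, a proteoglycan of the follicle matrix, was above 0 in 4 HLG libraries, at 21.7, 0.39, 2.79 and 0.43 FPKM, and in LLG-5 and LLG-8, at 3.19 and 0.46 FPKM. Of the 15 genes 3 were tested, with log2 fold changes of 0.95 ± 0.67 for INHBA, 0.96 ± 0.63 for VCAN and 0.26 ± 0.47 for KITLG, the KIT ligand (SE, limma, adjusted p = 0.988, 0.981 and 1).

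Markers of other cells were low as well. The summed FPKM of 8 oocyte markers was at most 7.20 in HLG and 0.75 in LLG, with ZP2, ZP3, DAZL and NLRP5 at 0 in all 10 libraries, and 7.14 FPKM of the HLG maximum was DDX4 in HLG-7. The sum of 5 theca markers was at most 4.74 in HLG and 2.91 in LLG, of 6 immune markers 1.37 and 1.98, of 7 endothelial markers 1.18 and 0.16, and of 2 erythroid markers 0.53 and 0. At least 1 library of each group had a sum of 0 for each of these lists. PDGFRA, a receptor of the theca list, was at 4.67, 1.32, 1.75 and 0.01 FPKM in HLG-5, HLG-7, HLG-9 and HLG-10 and at 0.03 and 0.02 in LLG-8 and LLG-9 (limma, unadjusted p = 0.0135, adjusted 0.976). STAR, which delivers cholesterol to mitochondria, was above 0 in LLG-8 alone, at 2.81 FPKM.

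Of 27 genes of gonadotropin and cyclic AMP signalling, 4 to 13 were above 0 in an HLG library and 1 to 8 in an LLG library. Of the 9 tested, 3 were higher in HLG at an unadjusted p under 0.05 and 0 were lower. These were RIC8B, described above, RIC8A and PRKAR2A. RIC8A, the chaperone of the other classes of α subunits, was at 11.3 and 2.45 FPKM in HLG-5 and HLG-9 and listed at 0 in the other 8 libraries. PRKAR2A, a regulatory subunit of protein kinase A, was at 1.83 and 2.60 FPKM in HLG-9 and HLG-10 and at 0.01 in LLG-9. The highest single value of the list was that of CREM, at 30.1 FPKM in LLG-9. CREM was at 11.7 and 1.34 FPKM in HLG-7 and HLG-9, with a log2 fold change of -0.01 ± 0.67 (SE, limma). Of the 9 tested, 7 log2 fold changes were positive and 2 negative. The median log2 fold change of the 9 was 0.66, beside 0.10 over all features tested. RIC8B had the lowest p of all features. The list was chosen with earlier results of these data known, so its count and median are a description alone. Adenylyl cyclases, which make cyclic AMP, were near 0, with ADCY3 at 4.04 FPKM in LLG-5 as the highest value among them. PDE4B, which degrades it, was at 1.26 and 8.48 FPKM in HLG-7 and HLG-8 and at 5.21 and 26.9 in LLG-7 and LLG-10, and PDE4D at 3.87, 6.13 and 0.03 FPKM in HLG-7, HLG-8 and HLG-10 and 0.16 in LLG-8. The 2 phosphodiesterases shared the same 2 leading HLG libraries.

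Of 15 genes of cholesterol supply and steroid synthesis, 0 to 5 were above 0 in a library of either group, 5 were tested and 0 had an unadjusted p under 0.05. SCARB1, the receptor of high density lipoprotein, was at 8.12 FPKM in LLG-5 and listed at 0 in the other 9 libraries. HSD17B12 was above 0 in HLG-5, HLG-9, HLG-10 and LLG-8, at 0.16 to 1.57 FPKM. Of 17 genes of the ovulatory response, 8 were tested and 0 had an unadjusted p under 0.05. EREG, an EGF-like ligand of EGFR, was at 3.11, 2.95, 0.37 and 0.47 FPKM in HLG-7, HLG-8, HLG-9 and HLG-10 and at 6.81 and 1.15 FPKM in LLG-5 and LLG-8. PTGS2, the inducible cyclooxygenase, was at 0.05 FPKM in HLG-10 alone, and AREG and TNFAIP6 were at 0 in all 10 libraries.

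The TGF-β superfamily, which carries signals from oocyte to GCs, was described by ligand, receptor and mediator. Of its 35 genes, 5 to 20 were above 0 in an HLG library and 1 to 15 in an LLG library. Of the 17 tested, 1 was higher in HLG at an unadjusted p under 0.05 and 0 were lower, and 6 log2 fold changes were positive and 10 negative. That gene was BMPR1B, the type I receptor of oocyte BMPs that is known for its part in sheep litter size. It was at 4.0, 6.08 and 2.32 FPKM in HLG-7, HLG-8 and HLG-9 and listed at 0 in HLG-5, HLG-10 and the 5 LLG libraries (limma, unadjusted p = 0.0166, adjusted 0.976). BMPR1A, its relative, was above 0 in 4 HLG libraries, at 0.03 to 2.70 FPKM, and in 3 LLG libraries, at 2.31, 0.04 and 9.34. BMPR2, the type II receptor, was at 4.22, 0.48 and 0.56 FPKM in HLG-8, HLG-9 and HLG-10 and at most 0.39 in LLG. Among ligands, GDF9, BMP15 and BMP6 were above 0 in HLG alone, at no more than 0.36 FPKM. BMP2 was at 2.50 FPKM in LLG-8 alone, and BMP7 at 0.18 in HLG-8 and 12.4 in LLG-9. TGFB1 was at 0.26 and 0.95 FPKM in HLG-7 and HLG-10 and 0.07 in LLG-8. TGFB2 was at 0.03, 0.07 and 1.46 FPKM in HLG-8, HLG-9 and HLG-10 and 1.72 in LLG-8.

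Activin receptors and SMADs gave values of both signs. ACVR1B, a type I activin receptor, was at 2.24 FPKM in HLG-9 and at 24.1 and 1.86 in LLG-5 and LLG-8. ACVR2B, a type II receptor, was at 0.85, 0.35 and 4.93 FPKM in LLG-5, LLG-8 and LLG-10 and at most 0.07 in HLG. SMAD4, the mediator shared by both branches, was at 21.9 FPKM in LLG-5 and at most 0.25 elsewhere. SMAD3, of the activin branch, was at 4.38 and 1.14 FPKM in LLG-9 and LLG-10 and listed at 0 in HLG, whereas the inhibitory SMAD7 was at 8.94, 3.96 and 0.28 FPKM in HLG-7, HLG-9 and HLG-10 and listed at 0 in LLG. Each of these genes rested on at most 3 libraries per group.

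In NOTCH signalling, by which neighbouring GCs and the oocyte communicate, 0 of 6 tested genes had an unadjusted p under 0.05. NOTCH1 was at 0.01, 2.10 and 0.01 FPKM in HLG-5, HLG-7 and HLG-10 and NOTCH2 at 1.34 and 0.87 in HLG-9 and HLG-10, with 0.01 in LLG-9. The target HEY2 was at 0.12, 2.05 and 3.35 FPKM in HLG-8, HLG-9 and HLG-10 and 0.19 in LLG-8, and HEY1 at 2.37 in HLG-10 and 16.8 in LLG-10. HES1 was at 0 in all 10 libraries. The highest value of the list was that of NUMB, at 25 FPKM in LLG-9. NUMB was at 0.35 and 0.18 FPKM in LLG-5 and LLG-8 and at 0.02 and 0.34 in HLG-5 and HLG-10. Of the 23 NOTCH genes, 2 to 11 were above 0 in an HLG library and 0 to 8 in an LLG library. Among 12 cell junction genes, of which 3 to 10 were above 0 in an HLG library and 0 to 6 in an LLG library, 1 of 8 tested was higher at an unadjusted p under 0.05. This was CDH2, N-cadherin, which holds GCs together, at 9.65 and 2.11 FPKM in HLG-5 and HLG-9 and 0 elsewhere. GJA1, the main gap junction protein of GCs, was at most 0.13 FPKM in HLG and 0.45 in LLG.

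The insulin and IGF system had 24 genes in the table, of which 3 to 15 were above 0 in an HLG library and 0 to 10 in an LLG library. IGF1, which enhances the FSH response, was at 5.76, 4.42, 2.17 and 0.79 FPKM in HLG-5, HLG-8, HLG-9 and HLG-10 and at 0.79 in LLG-8. It was the single one of 13 tested members with an unadjusted p under 0.05 (log2 fold change 1.37 ± 0.61, limma, unadjusted p = 0.0295, adjusted 0.976). Its receptor IGF1R was at 1.01, 1.83 and 0.01 FPKM in HLG-7, HLG-9 and HLG-10 and at 0.18 and 0.01 in LLG-8 and LLG-9. GHR, the growth hormone receptor, stood at 23.6 FPKM in LLG-9 and at most 0.05 elsewhere. FOXO3, a transcription factor restrained by PI3K signalling, was at 3.29, 1.02 and 0.01 FPKM in HLG-7, HLG-9 and HLG-10 and listed at 0 in LLG.

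Cell division genes were seldom detected, with 2 to 13 of 28 above 0 in an HLG library and 0 to 10 in an LLG library. CDK6, a kinase of the G1 phase, was at 5.48, 2.90, 5.62 and 0.78 FPKM in HLG-7, HLG-8, HLG-9 and HLG-10 and at 1.35 in LLG-8. It was the single one of 8 tested members with an unadjusted p under 0.05 (log2 fold change 1.40 ± 0.54, limma, unadjusted p = 0.0131, adjusted 0.976). MKI67, a marker of cycling cells, was at 0.06 and 0.05 FPKM in HLG-7 and HLG-10, and the mitotic genes CCNB1, CCNB2, AURKA and AURKB were at 0 in all 10 libraries. Other genes of mitosis were above 0 in single libraries, with BUB1B at 10.55 and 1.25 FPKM in HLG-7 and HLG-10, BUB1 at 0.67, 0.66 and 0.32 FPKM in HLG-9, HLG-10 and LLG-8, and TOP2A at 2.24 and 0.01 FPKM in LLG-8 and LLG-9. CDK1 was at 1.59 FPKM in HLG-10 and at 3.36 and 4.78 in LLG-8 and LLG-9.

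Of 17 apoptosis genes, 2 to 7 were above 0 in an HLG library and 1 to 8 in an LLG library. CASP8, described above, was the single one of 8 tested with an unadjusted p under 0.05, and it was lower in HLG. Without the libraries missing from the mapping information its unadjusted p was 0.233 (limma). FAS, a death receptor that acts through caspase-8, was above 0 in all 5 HLG libraries, at 0.78, 0.15, 8.08, 2.01 and 0.06 FPKM, and in LLG-8 and LLG-9, at 2.65 and 0.07. XIAP, an inhibitor of caspases, was at 0.05, 0.10, 0.39 and 2.33 FPKM in HLG-5, HLG-8, HLG-9 and HLG-10 and at 5.05, 8.43 and 5.85 in LLG-8, LLG-9 and LLG-10. CASP9, the initiator caspase of the mitochondrial pathway, was above 0 in LLG-8 alone, at 0.34 FPKM. Members that promote and that restrain apoptosis thus had values on both sides.

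The remaining lists held no member at an unadjusted p under 0.05 other than 2 genes used by most cells, ACTB and TPT1. ACTB, β-actin, was at 22.0 FPKM in HLG-9 and at most 1.73 elsewhere. This TPT1 feature (NCBI gene 102179679) was at 73.7 FPKM in HLG-5 and 3.61 in HLG-10, and at 0.15, 0.26 and 0.23 in LLG-8, LLG-9 and LLG-10. Another feature named TPT1 was at 0.03 FPKM in LLG-9 alone and was not tested. Several ribosomal and glycolytic members of that list peaked in HLG-5, with RPS3 at 90.3, RPS4X at 62.5 and ENO1 at 48.8 FPKM. Collagens and laminins of the follicle matrix were at most 2.05 FPKM, and 11 of its 19 genes were above 0 in HLG-10 and 11 in LLG-9. Among genes chosen for PCR on these samples, CD38 was at 21.6 FPKM in LLG-9 alone, and NEFM at 0.72, 0.92 and 0.69 FPKM in HLG-9, HLG-10 and LLG-8. Of 7 further markers of goat GCs, SCN2A was above 0 in 4 HLG libraries, at 0.09 to 0.77 FPKM, and TST in LLG-8 alone, at 7.96 FPKM. The study named its markers from its own data, and how the PCR genes were chosen is not stated. Neither list is independent evidence of a direction.

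**Figure D4:**
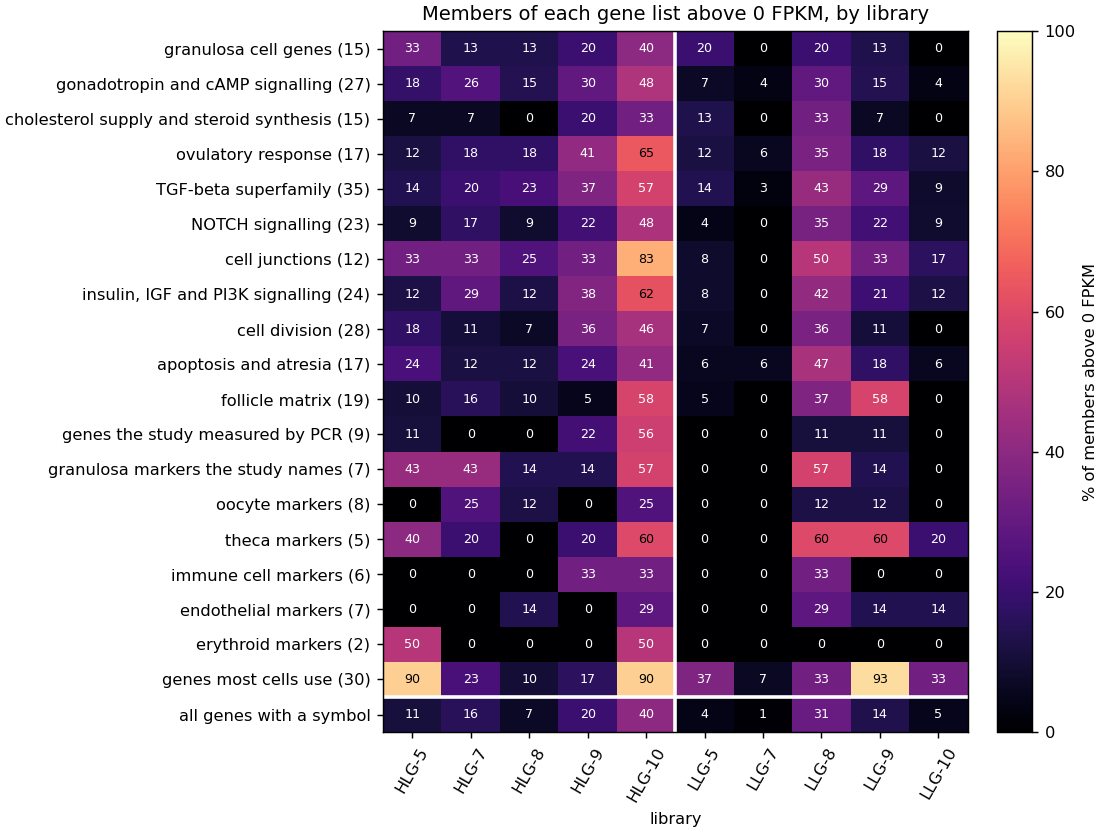
Percent of the members of each gene list that were above 0 FPKM in each library, with the number of features of the list in brackets. The bottom line gives the same percent for all genes with a symbol, which ranges from 7.38 to 40.5 in HLG and from 1.32 to 31.2 in LLG. HLG-10 and LLG-8 are high in most lists, and the genes most cells use reach 90 or more in HLG-5, HLG-10 and LLG-9.

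The difference between HLG and LLG was finally compared with the same difference in medium and small follicles. In limma's test of the difference itself, 0 of 6058 features were called for large against medium (0%, lowest adjusted p 0.924) and 0 for large against small (0%, lowest adjusted p 0.837). At an unadjusted p under 0.05 there were 292 (4.82%) and 333 (5.5%). Of the 10 genes of lowest p that were higher in HLG, 4 had the same sign in medium follicles and 6 in small ones. Of the 10 that were lower, 7 and 4 had the same sign, and ALOX12 was listed at 0 in all 10 medium follicle libraries.

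RIC8B was at 1.10 and 2.46 FPKM in HMG-9 and HMG-10, at 0 in the other 3 HMG libraries, and at 0.22 to 1.46 FPKM in LMG. In small follicles it was above 0 in 3 HSG libraries, at 0.36 to 1.47 FPKM, and in 5 LSG libraries, at 0.03 to 2.83. The HLG values of 21.3, 8.97, 9.87 and 3.13 FPKM exceeded those of the 25 libraries outside HLG. Its fertility difference was -0.30 ± 0.61 in medium and -0.68 ± 0.61 in small follicles, and large differed from them by 2.79 ± 0.87 and 3.17 ± 0.87 on the log2 scale (SE, limma, adjusted p = 0.924 and 0.837). FFAR4 was at 9.35 to 30.7 FPKM in medium and at 4.36 to 34.0 in small follicles. LLG-5, LLG-7, LLG-9 and LLG-10, at 0.05 to 2.96 FPKM, thus lay below the other 26 libraries. Its difference was 0.62 ± 0.73 in medium and -0.87 ± 0.73 in small follicles, and large differed from them by 1.90 ± 1.04 and 3.39 ± 1.04 (SE, limma, adjusted p = 0.924 and 0.837). LOC102169935 was at 80.5 to 205 FPKM in medium and at 66.5 to 144 in small follicles, and the same 4 LLG libraries, at 41.1 to 64.3 FPKM, were the lowest of all 30. These patterns were chosen because of the values in large follicles, and neither test of the difference passed the adjustment.

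**Figure D5:**
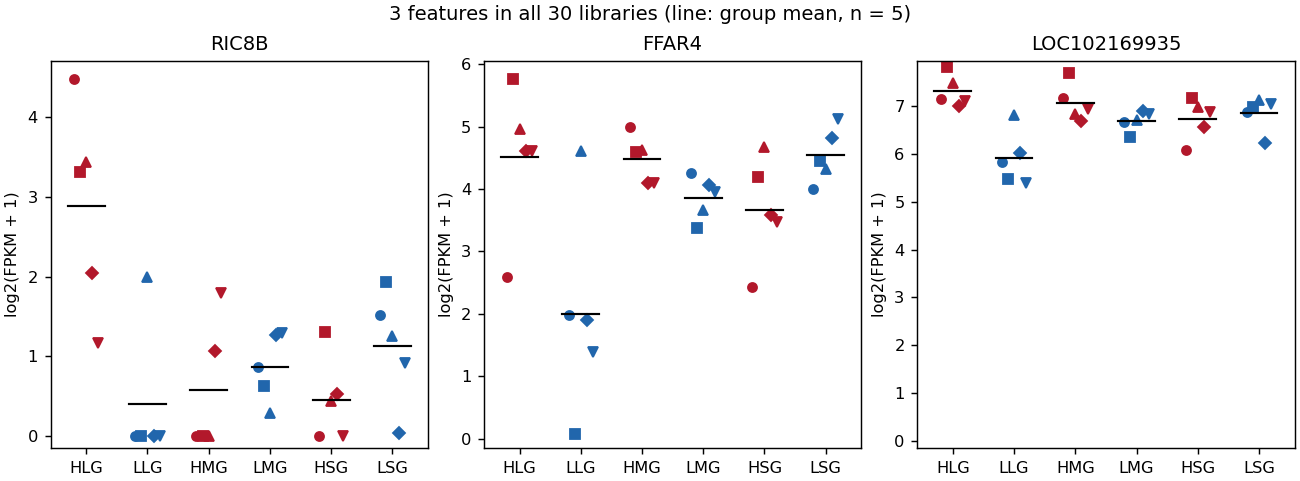
RIC8B, FFAR4 and LOC102169935 on the log2(FPKM + 1) scale in all 30 libraries, by group, with high fertility in red and low fertility in blue. Symbols mark the library number and lines the group means (n = 5). RIC8B is highest in 4 HLG libraries, and 4 LLG libraries are the lowest of the 30 for FFAR4 and for LOC102169935.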

How the data were processed

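The authors deposited FPKM values with 2 decimals for the 30 libraries, made from total RNA after removal of ribosomal RNA. Per the study's methods, reads with a single match to the goat genome and few mismatches were kept, picard took out duplicates, and Cufflinks gave the FPKM. The aligner and the genome build are not given in the sources used here. Symbols were taken from the RefSeq table of the goat assembly ARS1.2 for 17945 of 17946 NCBI gene numbers, and 2179 features have no such number.

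Features above 0.5 FPKM in at least 5 of 30 libraries were tested with limma 3.58.1 (R 4.3.3) on log2(FPKM + 1), in 1 fit of 6 group means with a robust, trended prior. Adjusted p-values follow Benjamini and Hochberg over all features tested, two-sided, at 0.05. The log2(FPKM + 1) scale understates changes of low values. Detection was compared by Fisher's exact test, and numbers of features by exact permutation, with scipy 1.17.1. The steps were tested on simulated data with a known answer, which does not show the power of the tests in these data. Fragment counts were not recovered, so counting intervals are not given.

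Genes were named as the 10 with a symbol of lowest p in each direction, the most abundant with a symbol above 0 in all 10 libraries (all 12 are given), those above 0 in 5 libraries of one group and 0 of the other, and members of role lists above 0 in at least 5 libraries or asked for by role. The members, lists and tests were chosen with earlier results of these data known. Values of some single list members are not reported here.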

Additional observations from a re-analysis of the deposited data

Results flagged for a closer look

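In 38 sets of 5 libraries searched (features per library, shares, and FPKM of single features, each in HLG or LLG), 4 held a library far from the other 4 by Dixon's criterion. Chance alone gives 1.9, or 1 set in 20, for independent sets of normally distributed values. These sets share the same 10 libraries, and normality was not tested, so 1.9 is a rough guide. LLG-8 had 2284 features at 1 FPKM or more, against 201 to 745 in the other LLG libraries. HLG-5 held 78.13% of its FPKM in the features above 0 in all 10 libraries, against 86.62% to 88.7% in the other HLG libraries. FFAR4 was at 23.32 FPKM in LLG-8, against 0.05 to 2.96 in the other LLG libraries. MRS2 was at 25.91 FPKM in HLG-7, against 9.50 to 13.07 in the other HLG libraries.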

How the results depend on the processing

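Of the values of 33 single features under the alternatives, 693 kept their direction and side of the threshold, 10 changed direction and 4 passed it. The number of features called, 0, was 2 among features above 0 in at least 8 of 10 libraries, 1 with sample quality weights and 1 without the libraries missing from the mapping information. Under the other alternatives it stayed 0, and the tests of the difference between sizes gave 0 under each one run. Leaving out 1 library at a time gave 0 called features in these tests, and a difference in features at 1 FPKM or more of 293.4 (without HLG-10) to 908 (without LLG-8, past the threshold). At an unadjusted p under 0.05, limma gave 258 to 376 features without 1 library, 71 with only HLG and LLG in the fit and 624 with sample quality weights, against 291. The features above 0 in every HLG and no LLG library, 4, numbered 4 to 22 without 1 library, and 26 with 9 in the reverse direction without HLG-5, LLG-5 and LLG-7, a check added after the data were seen. The direction turned for ALOX12 (0.0324), MRS2 (-0.00779) and NIF3L1 (-0.0682) without the libraries missing from the mapping information, for EGFR (-0.316) and MRS2 (-0.457) after scaling to features above 0 in all 30 libraries, and for MMGT1 (-0.0695) with quantile normalization. With 1 library left out, CDKN1A ranged from -0.721 to 0.457 (without HLG-8) and MRS2 from -0.121 (without HLG-7) to 0.283, with -0.0387 without LLG-5 and -0.0124 without LLG-10. The cause was not tested.

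The labels give both groups the same replicate numbers. Deviations of same-numbered libraries correlated at -0.013 to 0.0328, and 1 of 5 HLG libraries, HLG-8, matched its own number best. With many values at 0, these correlations cannot decide whether the numbers pair the libraries. With the replicate block limma called 0 features (302 at an unadjusted p under 0.05) in HLG against LLG and 0 in both tests of the difference between sizes, and the difference of 547.4 features gave an exact sign-flip p of 0.438, where 0.0625 is the smallest possible.

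Depth could not be read for LLG-7. In the other 9 libraries the lowest value in genes spanning 900 to 1000 bp, taken as about 1 fragment, was 0.07 or 0.08 FPKM. It rested on 6 such genes in HLG-5 and in LLG-10, so that depth was read roughly there.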
